A study of Danio rerio with 16 samples.

Results

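The genes described are the D-box factors of zebrafish, the PAR bZIP transcription factors of the dbp, tef and hlf families and the nfil3 repressors. Rows of the count tables were taken whose Ensembl identifier carries 1 of 10 symbols (dbpa, dbpb, tefa, tefb, hlfa, hlfb, nfil3, nfil3-2, nfil3-5 and nfil3-6) in a table of gene names. This found 8 of the 10, out of 32105 genes counted: 5 activators and 3 repressors. The symbol nfil3 is listed in its human form NFIL3, and hlfb and nfil3-2 are paired with no identifier there, so both are not analysed here. All 8 genes found passed the filter on low counts, which left 21372 genes tested.

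RNA was taken from whole zebrafish larvae aged 5 days and sequenced as ribosome-depleted, stranded total RNA. Control larvae had received 0.1% DMSO, the solvent, and the other 3 groups PCB153 at 0.1, 1 or 10 µM, each from hour 4 to hour 120 after fertilisation (4 libraries per group, 16 in all). PCB153 is a long-lived pollutant, a polychlorinated biphenyl that lacks the flat shape of dioxin-like congeners. The labels name no strain, number of larvae per library, light cycle or hour of collection, so p-values measure the spread between these libraries.

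PAR bZIP proteins are named for a domain rich in proline and acidic residues beside a basic leucine zipper. They bind a DNA element called the D-box and activate transcription, while NFIL3, also called E4BP4, binds the same element and represses it. In mammals the CLOCK and BMAL1 proteins drive Dbp through E-box elements, and REV-ERB and ROR receptors act in opposite directions on Nfil3, so the D-box factors carry the rhythm of the clock to genes of metabolism. In zebrafish the D-box is also an element through which light switches on genes, among them per2 and cry1a, and tefa is itself induced by light.

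Gene counts per library ranged from 8069225 to 15531744, and each of the 8 genes had at least 318 counts in every library. Reads outside annotated genes made up 31.4% to 35.5% of uniquely aligned reads in DMSO, 36.2% to 38.6% at 0.1 µM, 35.1% to 40.4% at 1 µM and 31.7% to 33.3% at 10 µM. That share differs between groups, and its part in the results was not tested beyond fits that hold this outside share as a covariate. Reads with more than 1 alignment made up 26.95% to 33.52% of all reads tallied in DMSO and 36.58% to 41.5% at 10 µM. They made up 28.1% to 57.7% at 0.1 µM and 31.33% to 40.71% at 1 µM. The DMSO and 10 µM ranges of this share do not overlap, and no fit held it as a covariate. Its part in the results was not tested. Levels are given as CPM, the count of a gene per 1e+06 counts of the library after TMM scaling, and changes as log2 fold changes ± SE. A gene is said to have risen or fallen where the edgeR adjusted p, over all genes tested, was under 0.05. Levels are compared between groups and not between genes, since no transcript lengths were at hand.

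All 8 D-box factor genes found were higher than in DMSO at every concentration, activators and repressors alike. A further gene listed only as HLF, not counted among the 8, was tested and not called, as given below. At 0.1 µM all 8 rose, where 2.3% of all genes tested did, with a median log2 change of 0.55 and a range from 0.38 to 1.05. At 1 µM all 8 rose against 7.13% of all genes, with a median of 0.74, and at 10 µM all 8 rose against 9.9%, with a median of 0.83. The median change over all genes was between -0.01 and 0.00 in the 3 comparisons. In each of them the 4 exposed libraries lay above all 4 DMSO libraries for all 8 genes, as they did for 5.03%, 9.75% and 13.2% of all genes at 0.1, 1 and 10 µM. The 3 comparisons share the DMSO libraries and are therefore not independent of each other. In a test of any difference among the 4 groups all 8 were called, against 25.8% of all genes, with adjusted p from 2.2e-10 for dbpb to 5.97e-05 for tefa. In whole larvae a change of RNA per cell and a change in the share of cells that express a gene cannot be told apart. The labels give no hour of collection. A difference between groups in that hour or in daily rhythm therefore cannot be told apart from the exposure.

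**Figure D1:**
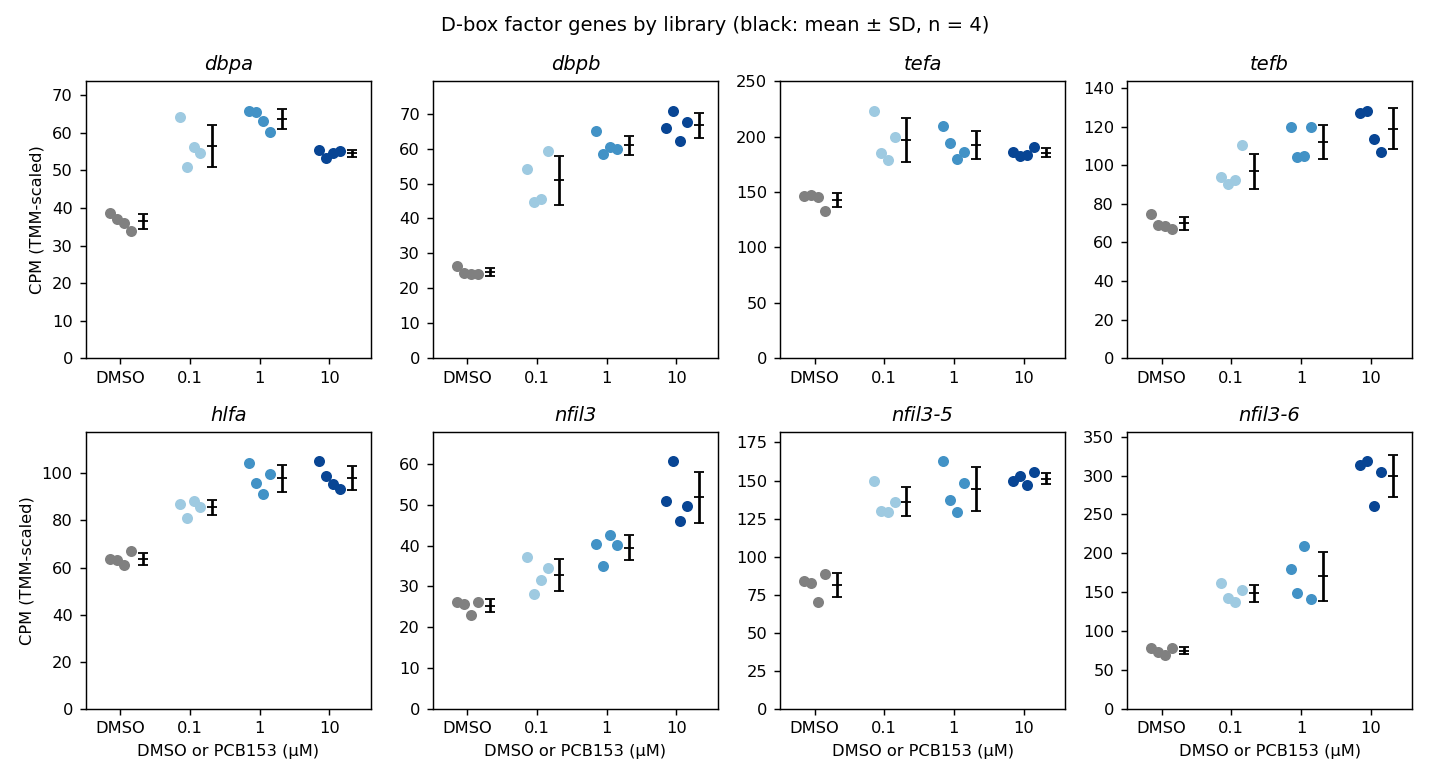
Level of each D-box factor gene in CPM (vertical axes from 0, a scale of its own for each gene) in the 4 libraries of DMSO and of PCB153 at 0.1, 1 and 10 µM, in order of replicate number, with the mean ± SD in black. Every exposed library lies above every DMSO library in all 8 panels, and nfil3-6 at 10 µM stands apart from the lower concentrations with 260 to 318 CPM.

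Among the activators dbpb had the largest rise. The gene dbpb (ENSDARG00000057652) encodes D-site binding protein, as does dbpa, and the pair are duplicates of the gene that is single in mammals. It stood at 26.3, 24.3, 24.1 and 24.0 CPM in DMSO replicates 1 to 4 and at 54.1, 44.6, 45.6 and 59.3 CPM at 0.1 µM. At 1 µM the 4 values were 65.0, 58.5, 60.4 and 59.8 CPM, and at 10 µM they were 66.0, 70.9, 62.2 and 67.7 CPM. The lowest exposed library, at 44.6 CPM, was thus well above the highest control, while 0.1 and 1 µM overlapped in range. The rise against DMSO was 1.05 ± 0.08 log2 units at 0.1 µM (2.07-fold, adjusted p = 9.49e-09), 1.30 ± 0.08 at 1 µM (2.47-fold, adjusted p = 1.5e-10) and 1.44 ± 0.08 at 10 µM (2.71-fold, adjusted p = 3.51e-11). By size of log2 change dbpb ranked 41, 34 and 54 among the 21372 genes.

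Its duplicate dbpa (ENSDARG00000063014) rose less, and its mean was highest at the middle concentration. In DMSO dbpa stood at 38.7, 37.0, 36.1 and 34.0 CPM, and at 0.1 µM at 64.4, 50.9, 56.2 and 54.7 CPM. The 4 libraries at 1 µM had 65.9, 65.5, 63.1 and 60.3 CPM and those at 10 µM had 55.5, 53.3, 54.6 and 55.1 CPM, so that all 10 µM libraries lay below all 1 µM libraries. Against DMSO the rises were 0.63 ± 0.06 at 0.1 µM (adjusted p = 1.6e-06), 0.80 ± 0.06 at 1 µM (adjusted p = 1.58e-08) and 0.59 ± 0.06 at 10 µM (adjusted p = 1.38e-06). From 1 to 10 µM dbpa fell by 0.22 ± 0.06 (adjusted p = 0.0405). This call is weak: it was lost in 12 of 23 alternative fits, among them those without any one of the 10 µM libraries or without 1 µM replicates 1, 2 or 3, with adjusted p up to 0.538.

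The tef genes encode thyrotroph embryonic factor, and of these tefa (ENSDARG00000039117) had the smallest rise at 10 µM of all 8 genes. It measured 146, 147, 145 and 133 CPM in DMSO and 223, 185, 179 and 199 CPM at 0.1 µM. At 1 µM the values were 209, 194, 180 and 186 CPM and at 10 µM 186, 182, 183 and 191 CPM. The exposed groups overlapped each other, and none overlapped DMSO. The rise of tefa was 0.46 ± 0.06 at 0.1 µM (adjusted p = 0.000112), 0.43 ± 0.06 at 1 µM and 0.38 ± 0.06 at 10 µM (adjusted p = 0.000281). Between 10 and 0.1 µM tefa differed by -0.08 ± 0.06 (adjusted p = 0.371), so a further change with concentration was not detected.

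Its relative tefb (ENSDARG00000098103) ranged from 66.8 to 74.8 CPM in DMSO, from 90.4 to 110 CPM at 0.1 µM, from 104 to 120 CPM at 1 µM and from 107 to 128 CPM at 10 µM. It rose by 0.47 ± 0.07 (adjusted p = 0.000406), 0.68 ± 0.07 (adjusted p = 1.24e-06) and 0.77 ± 0.07 (adjusted p = 1.72e-07) against DMSO. At 10 µM tefb was higher than at 0.1 µM by 0.30 ± 0.07 (adjusted p = 0.00579), although the libraries of both groups overlapped.

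The gene hlfa (ENSDARG00000074752) encodes hepatic leukemia factor, which is expressed with a daily rhythm in mammalian liver. Its level was 61.0 to 67.2 CPM in DMSO, 81.2 to 88.3 CPM at 0.1 µM, 91.3 to 105 CPM at 1 µM and 93.3 to 105 CPM at 10 µM. The rises were 0.42 ± 0.06 (adjusted p = 5.93e-05), 0.62 ± 0.06 (adjusted p = 9.99e-08) and 0.62 ± 0.06 (adjusted p = 5.72e-08). From 1 to 10 µM the difference was 0.01 ± 0.05 (adjusted p = 0.968), while 10 µM exceeded 0.1 µM by 0.20 ± 0.05 (adjusted p = 0.013). That last call was lost without 0.1 µM replicate 2 (adjusted p = 0.0523) or 10 µM replicate 1 (adjusted p = 0.0671). A further gene, ENSDARG00000061011, is listed only as HLF, and which zebrafish hlf gene it is was not inferred. It had 70 to 170 counts per library, between 6.22 and 11.1 CPM, and was not called at any concentration, with differences from DMSO of 0.25 ± 0.13, 0.37 ± 0.13 and 0.34 ± 0.13 (adjusted p = 0.347, 0.0699 and 0.083).

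The repressor nfil3-6 (ENSDARG00000087188) had the largest change of the 8 genes at 10 µM. In DMSO its level was 77.9, 73.6, 68.6 and 78.3 CPM and at 0.1 µM it was 162, 143, 137 and 152 CPM. The libraries at 1 µM had 180, 149, 210 and 142 CPM, and those at 10 µM had 314, 318, 260 and 304 CPM. All libraries of 10 µM lay above all others, whereas 0.1 and 1 µM overlapped, with the widest spread at 1 µM (SD 31.2 CPM). Against DMSO nfil3-6 rose by 0.99 ± 0.10 at 0.1 µM (1.99-fold, adjusted p = 1.9e-05), 1.19 ± 0.10 at 1 µM (2.28-fold, adjusted p = 7.97e-07) and 2.00 ± 0.11 at 10 µM (4.01-fold, adjusted p = 7.84e-10). The last is the log2 change of rank 7 among the 21372 genes. From 1 to 10 µM nfil3-6 rose by 0.81 ± 0.10 (adjusted p = 0.000246). In the fit with the outside share as covariate this step was 0.65 ± 0.16 (adjusted p = 0.122).

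Along with nfil3-6, nfil3 (ENSDARG00000042977) was the gene that rose from 1 to 10 µM. In DMSO it stood at 26.3, 25.8, 23.1 and 26.1 CPM, and at 0.1 µM at 37.3, 28.2, 31.5 and 34.6 CPM. The values were 40.3, 35.1, 42.6 and 40.1 CPM at 1 µM and 51.0, 60.7, 46.1 and 49.7 CPM at 10 µM. The lowest library at 0.1 µM exceeded the highest control by less than 2 CPM, while every 10 µM library was above every other. The rise was 0.38 ± 0.09 at 0.1 µM (adjusted p = 0.0196), 0.64 ± 0.09 at 1 µM (adjusted p = 4.42e-05) and 1.03 ± 0.09 at 10 µM (2.05-fold, adjusted p = 3.64e-08). The first of these missed the threshold without DMSO replicate 3 (adjusted p = 0.0827) or 0.1 µM replicate 1 (adjusted p = 0.0749). From 1 to 10 µM nfil3 rose by 0.39 ± 0.09 (adjusted p = 0.0106). This step missed the threshold without 1 µM replicate 2 (0.34 ± 0.09, adjusted p = 0.0556), without 10 µM replicate 2 (0.31 ± 0.08, adjusted p = 0.0538) and with the covariate (0.23 ± 0.13, adjusted p = 0.62). The same held without 1 µM replicates 1 and 2 and 0.1 µM replicate 3 together (0.33 ± 0.11, adjusted p = 0.143).

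The third repressor, nfil3-5 (ENSDARG00000094965), ranged from 70.3 to 88.4 CPM in DMSO, from 130 to 150 CPM at 0.1 µM, from 129 to 163 CPM at 1 µM and from 147 to 156 CPM at 10 µM. It rose by 0.74 ± 0.07 (adjusted p = 9.9e-07), 0.82 ± 0.07 (adjusted p = 6.91e-08) and 0.89 ± 0.07 (adjusted p = 1.39e-08). Between 10 and 0.1 µM it differed by 0.15 ± 0.07 (adjusted p = 0.132), which was not called. Of other nfil3 genes, nfil3-4 (ENSDARG00000092346) had 0 to 2 counts per library and was not tested, and nfil3-3 was not analysed here. Reads with more than 1 alignment are not part of the gene counts, so reads that align equally to related copies are missing. The split between duplicates is therefore uncertain.

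**Figure D2:**
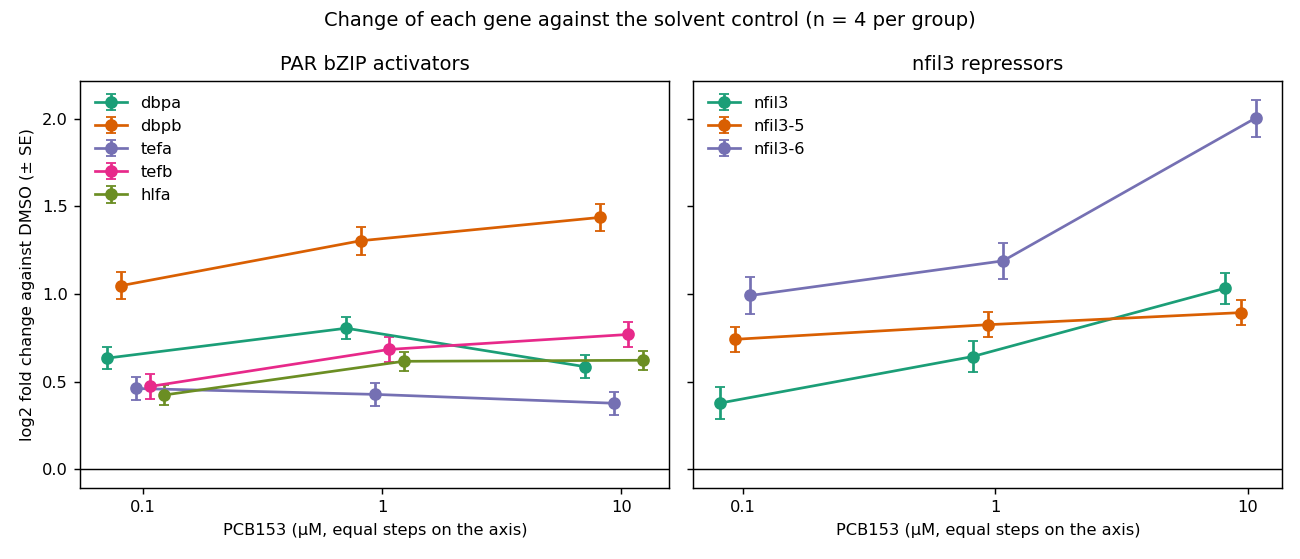
Log2 fold change against DMSO ± SE (vertical axis, the same for both panels) at 0.1, 1 and 10 µM PCB153 for the 5 activators on the left and the 3 repressors on the right. All points lie above 0, nfil3-6 reaches 2.00 at 10 µM, and tefa lies between 0.38 and 0.46 at all 3 concentrations.

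Direct comparisons between concentrations separated the genes. Between 1 and 0.1 µM edgeR called 0 of the 8, where 0.973% of all genes were called. At an unadjusted p under 0.05 there were 5 (dbpa, dbpb, tefb, hlfa and nfil3), against 15.7% of all genes, and DESeq2 called 1, hlfa (adjusted p = 0.0461). Between 10 and 1 µM 3 of the 8 were called, against 6.15% of all genes: nfil3 and nfil3-6 rose, as 3.11% of all genes did, and dbpa fell, as 3.05% did. Between 10 and 0.1 µM 5 of the 8 rose, against 10.8% of all genes. These were dbpb by 0.39 ± 0.07 (adjusted p = 0.000944), tefb, hlfa, nfil3 by 0.66 ± 0.09 (adjusted p = 5.21e-05) and nfil3-6 by 1.01 ± 0.10 (adjusted p = 1.5e-05). In order of mean level, dbpb, tefb, hlfa, nfil3, nfil3-5 and nfil3-6 ran from DMSO through 0.1 and 1 µM to 10 µM. For tefa the order was DMSO, 10, 1 and 0.1 µM, and for dbpa it was DMSO, 10, 0.1 and 1 µM. Of the 3 steps between neighbouring groups, that from DMSO to 0.1 µM was called for all 8, that from 0.1 to 1 µM for 0 and that from 1 to 10 µM for 3. In the fit with the outside share as covariate all 8 rose at each concentration against DMSO, but 0 were called between 10 and 1 µM (1 at an unadjusted p under 0.05) and 1, nfil3-6, between 10 and 0.1 µM. Calls over all genes fell away in that fit too, from 1315 to 53 (0.248% of genes) between 10 and 1 µM and from 4567 to 275 (1.29%) between 10 and 0.1 µM. The outside share at 10 µM did not overlap that at 0.1 or 1 µM, so share and concentration cannot be told apart in these comparisons. Nor did the share at 0.1 µM (36.2% to 38.62%) overlap that in DMSO (31.4% to 35.55%). Share and exposure cannot be told apart there either, and calls over all genes fell from 734 to 207 with the covariate.

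Ratios of raw counts of related genes within a library do not depend on how libraries are scaled, and they are given as a description without a test. The counts still lack reads with more than 1 alignment. The share of such reads did not overlap between DMSO (26.95% to 33.52%) and 10 µM (36.58% to 41.5%), and its part in the ratios was not tested. The ratio of dbpb to dbpa counts was 0.677 ± 0.0212 in the 4 DMSO libraries (mean ± SD), 0.903 ± 0.123 at 0.1 µM, 0.957 ± 0.0456 at 1 µM and 1.22 ± 0.0798 at 10 µM. Its range at 10 µM, 1.14 to 1.33, lay above the ranges of all other groups, and that of DMSO, 0.656 to 0.706, lay below them. The ratio of nfil3-6 to nfil3-5 was 0.919 ± 0.0421 in DMSO, 1.09 ± 0.0281 at 0.1 µM, 1.19 ± 0.293 at 1 µM and 1.98 ± 0.155 at 10 µM. At 1 µM the library of replicate 3 had 1.62 and the other 3 between 0.954 and 1.11. For tefb to tefa the ratio was 0.489 ± 0.0218 in DMSO, 0.495 ± 0.0561 at 0.1 µM, 0.584 ± 0.0453 at 1 µM and 0.642 ± 0.0652 at 10 µM, with overlap between all neighbouring exposed groups.

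**Figure D3:**
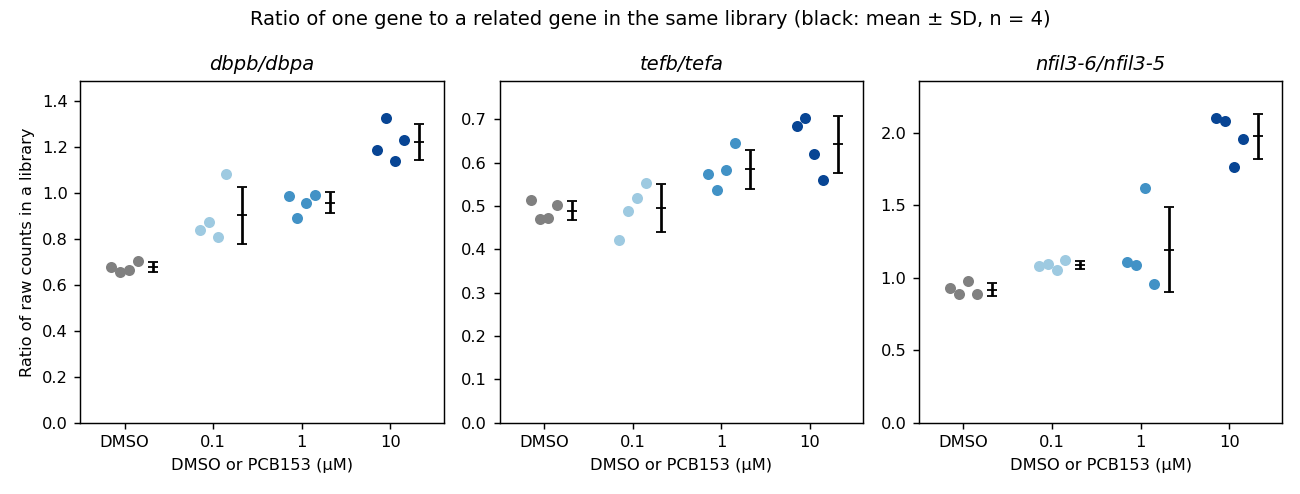
Ratio of the raw counts of dbpb to dbpa, tefb to tefa and nfil3-6 to nfil3-5 in each library (vertical axes from 0) for DMSO and PCB153 at 0.1, 1 and 10 µM, with mean ± SD in black. The dbpb to dbpa ratio is 0.656 to 0.706 in DMSO and 1.14 to 1.33 at 10 µM, and the nfil3-6 to nfil3-5 ratio reaches 1.77 to 2.10 at 10 µM.

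The 8 genes also varied together over the 16 libraries, which includes the differences between groups given above. Pearson correlations of log2 CPM between the 28 pairs ran from 0.625 (tefa and nfil3) to 0.965 (dbpb and tefb), with a median of 0.892. After the mean of each group was subtracted they ran from 0.0402 (hlfa and nfil3-6) to 0.767 (dbpa and tefa), with a median of 0.336. All of these values share their libraries and depths and are descriptions. Among 15259 other genes with a symbol and a mean of at least 5 CPM, those most like dbpb were NR1D1 (Pearson r = 0.988, Spearman rho = 0.947), CRY1 ENSDARG00000011583 (0.986 and 0.956) and NR1D2 (0.985 and 0.871). For dbpa the nearest was PER1 ENSDARG00000012499 (0.964 and 0.85), for tefa it was dbpa (0.932 and 0.759), for tefb snrkb (0.97 and 0.956) and for hlfa six7 (0.966 and 0.888). For the repressors the nearest were hsd20b2 (0.975 and 0.985) and PCK1 (0.974 and 0.974) for nfil3, ciarta (0.975 and 0.871) and NR1D2 (0.972 and 0.909) for nfil3-5, and dio3b (0.976 and 0.876) and guca1c (0.973 and 0.888) for nfil3-6. After the group means were subtracted the nearest were others, such as sgk1 (0.908 and 0.947) for nfil3 and SLC7A3 (0.89 and 0.821) for nfil3-6.

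Clock genes that act through E-boxes did not all go one way; for the lists that follow, 1.14%, 5.27% and 8.45% of all genes fell at 0.1, 1 and 10 µM, beside the shares that rose given above. Of the 15 tested, 5, 6 and 7 rose and 1, 1 and 2 fell at 0.1, 1 and 10 µM, with median log2 changes of 0.14, 0.14 and 0.15. The 1 that fell at 0.1 µM was cry3b, a cryptochrome gene, by 0.27 ± 0.07 (adjusted p = 0.0278). That count of 1 became 0 without DMSO replicate 2, 3 or 4, without 0.1 µM replicate 1, 2 or 3, with the covariate, in the fit of 2 groups alone and without 3 libraries doubted for depth or mapping (1 µM replicates 1 and 2 and 0.1 µM replicate 3), and 2 with DESeq2 and without 0.1 µM replicate 4. The activators CLOCK and BMAL1, 2 genes each, were not called at any concentration, with differences from -0.13 to 0.16. At 0.1 µM the unadjusted edgeR p was 0.0174 for CLOCK ENSDARG00000003631 and 0.0313 for BMAL1 ENSDARG00000006791, both differences being upward. For CLOCK ENSDARG00000011703 and BMAL1 ENSDARG00000035732 it was 0.141 and 0.799. The period gene PER1 ENSDARG00000056885, whose product inhibits CLOCK and BMAL1, rose by 1.88 ± 0.11, 2.23 ± 0.11 and 2.13 ± 0.11 (adjusted p at most 3.25e-09). Another PER1 gene, ENSDARG00000012499, rose less, by 0.93 ± 0.06, 1.13 ± 0.06 and 1.04 ± 0.06 (adjusted p at most 1.98e-09). Of 11 REV-ERB and ROR receptor genes, which act on the element that controls Nfil3 in mammals, 6, 7 and 7 rose and 0 fell, with medians of 0.40, 0.68 and 0.46. In the alternative fits the number that rose was 5 to 6 at 0.1 µM, 5 to 8 at 1 µM and 7 to 9 at 10 µM. The repressor NR1D1 (REV-ERB alpha) rose by 1.41 ± 0.07, 1.80 ± 0.07 and 1.83 ± 0.07, and rorcb, of the ROR family of activators, by 0.64 ± 0.07, 0.68 ± 0.07 and 0.46 ± 0.07.

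Genes of the zebrafish light response, several of which carry D-boxes, were mostly higher too. Of the 11 tested, 7, 8 and 8 rose and 0 fell at 0.1, 1 and 10 µM, with medians of 0.30, 0.45 and 0.46. In the alternative fits the number that rose was 5 to 7 at 0.1 µM, 7 to 8 at 1 µM and 8 at 10 µM. The period gene PER2 stood at 111 ± 5.47 CPM (mean ± SD of 4 libraries) in DMSO, and at 186 ± 8.59, 208 ± 4.87 and 180 ± 4.54 CPM in order of concentration. Like dbpa it was highest at 1 µM, and it fell from 1 to 10 µM by 0.21 ± 0.05 (adjusted p = 0.017). This fall of PER2 was not examined in the alternative fits, and the fall of dbpa was a weak call, as given above. The photolyase gene cry5, whose product repairs light-induced DNA damage, rose by 0.67 ± 0.09, 0.75 ± 0.09 and 0.60 ± 0.09. The gene lonrf1, which light induces in zebrafish, rose by 0.48 ± 0.06, 0.45 ± 0.06 and 0.53 ± 0.06.

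A list of 13 zebrafish genes was drawn up to stand for those that PAR bZIP factors activate in mouse liver and kidney. Whether each is such a target, in mouse or in zebrafish, was not tested, and this includes NR1I2 and cyp2k6 below. Of the 13, 3, 5 and 7 rose and 0 fell, with medians of 0.08, 0.15 and 0.25. DESeq2 called 1 lower at 1 µM, and ALAS1, the first enzyme of haem synthesis, differed from DMSO by -0.28 ± 0.11, -0.31 ± 0.11 and -0.23 ± 0.11 without a call (adjusted p = 0.167, 0.0675 and 0.154). At 0.1 µM the number that rose was 1 in the fit with the outside share as covariate, at 1 µM it was 3 and at 10 µM it was 5. Across the alternative fits the number that fell was 0 to 1 at each concentration. POR ENSDARG00000059035, the reductase that supplies electrons to cytochromes P450, went from 103 ± 2.74 CPM in DMSO (SD, n = 4) to 142 ± 8.34, 173 ± 16.6 and 182 ± 6.86 CPM, a rise of 0.45 ± 0.06, 0.74 ± 0.06 and 0.81 ± 0.06. Another POR gene, ENSDARG00000055092, rose less, by 0.21 ± 0.06, 0.29 ± 0.06 and 0.25 ± 0.06 (adjusted p = 0.0359, 0.00136 and 0.00288). NR1I2, which encodes a receptor for xenobiotics called PXR, rose by 0.42 ± 0.09, 0.81 ± 0.09 and 0.86 ± 0.09. The cytochrome P450 gene cyp2k6 was low, at 0.922 ± 0.522 CPM in DMSO, and rose to 4.44 ± 2.19 CPM at 1 µM and 8.81 ± 2.71 CPM at 10 µM (adjusted p = 0.00505 and 6.97e-05). At 0.1 µM cyp2k6 stood at 1.25 ± 0.361 CPM and was not called (0.41 ± 0.54, adjusted p = 0.766).

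C/EBP proteins are basic leucine zipper factors related to the PAR group, and 5 of their genes were tested. At 0.1 µM edgeR called 0 of them (0 at an unadjusted p under 0.05, 0 with DESeq2), and at 1 µM 0 (2 unadjusted, 1 with DESeq2). At 10 µM cebpg rose by 0.38 ± 0.10 (adjusted p = 0.0112) and CEBPA fell by 0.36 ± 0.10 (adjusted p = 0.019), while DESeq2 called 2 higher and 1 lower. Leaving out DMSO replicate 1, 10 µM replicate 1 or DMSO replicate 2 took the number called lower at 10 µM to 0.

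**Figure D4:**
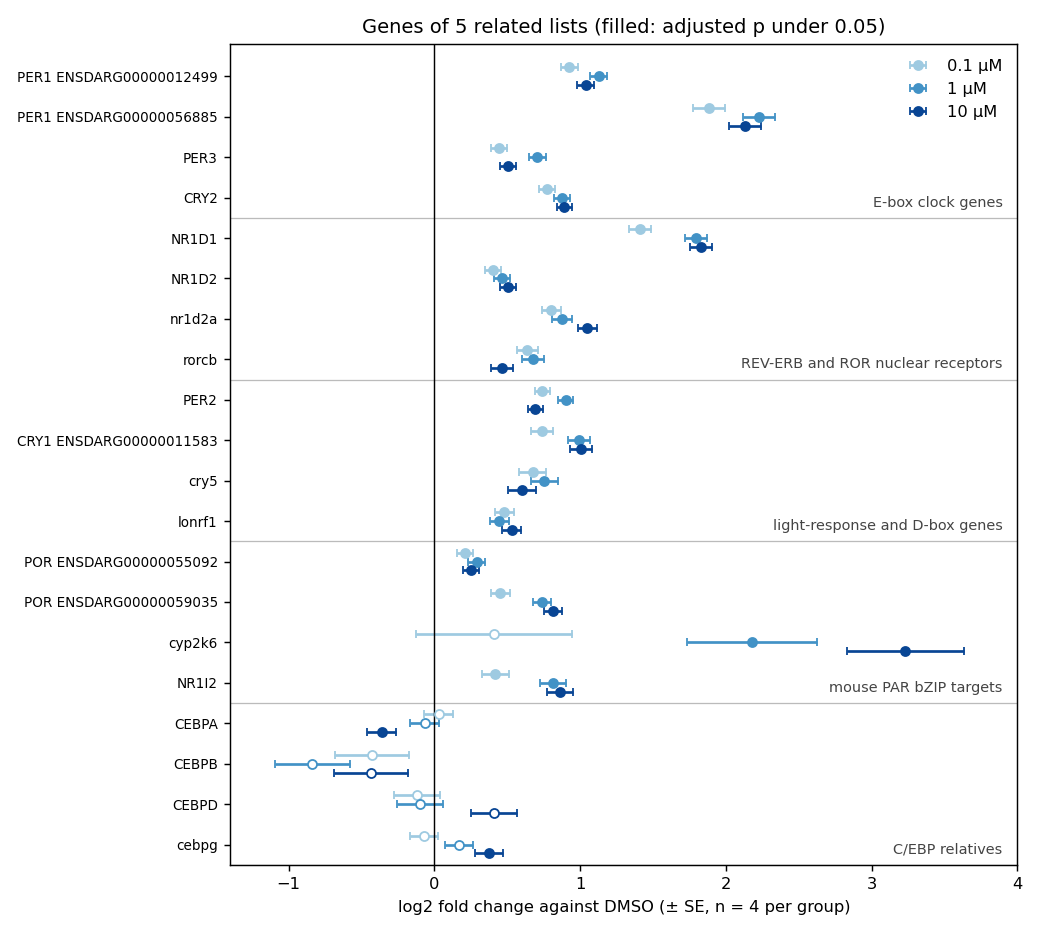
Log2 fold change against DMSO ± SE (horizontal axis, n = 4 per group) of up to 4 genes from each of 5 related lists, chosen by smallest p over any difference among the groups, at 0.1, 1 and 10 µM PCB153. Filled points passed adjusted p under 0.05: all clock, receptor and light-response genes shown are filled and above 0, while the C/EBP genes lie on both sides of 0 and 2 of their 12 points are filled. Choice by p in these same data favours filled points, so the genes shown do not stand for their lists. Of the 15 clock genes tested, 5, 6 and 7 rose and 1, 1 and 2 fell in order of concentration.

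Of 34 markers chosen for the tissues of a whole larva, 25 had an identifier and 24 were tested, down to 1.79 CPM for aanat2, a pineal gene. Skeletal muscle, heart, pineal and red blood cells were each represented by 1 tested marker. At 0.1 µM edgeR called 0 of the 24 (6 at an unadjusted p under 0.05, 0 with DESeq2). At 1 µM 0 rose and 5 fell, where 7.13% of all genes rose and 5.27% fell. At 10 µM 3 of the 24 rose and 6 fell, where 9.9% of all genes rose and 8.45% fell. With the covariate the 5 became 1, as it did when 1 µM replicate 3 or either of DMSO replicates 2 and 3 was left out (without DMSO replicate 2, 1 also rose). It became 2 without DMSO replicate 4, 1 µM replicate 1 or the doubted libraries, and 3 without 1 µM replicate 2 or 4. At 10 µM the 3 became 1 without DMSO replicate 3, and 2 in each of the fits without 1 of DMSO replicate 2 and 10 µM replicates 1, 2 and 4, while those that fell numbered at least 4 in each alternative run. Those that rose at 10 µM were myl7 of heart, elavl4 of neurons and gnat1 of rod photoreceptors. Those that fell at 1 or 10 µM belong to liver and skin: the liver markers, 3 in number, summed to 2588 to 3156 CPM in DMSO, 2527 to 2988 at 0.1 µM, 2115 to 2538 at 1 µM and 1848 to 2349 at 10 µM. For skin the 3 markers summed to 9271 to 10750, 7496 to 9812, 6767 to 8129 and 6693 to 7431 CPM. Their part in the rises of the D-box factor genes was not tested.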

How the data were processed

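Gene-level read counts from 16 libraries were used. Per the submitters' processing notes the authors used Trimmomatic, HTSeq, edgeR and the build GRCz10; no version, aligner or annotation is named. The deposited counts are whole numbers, not normalized, for 32105 genes, with 5 summary lines per file that were left out of library sizes (reads with more than 1 alignment were 26.9% to 57.7% of all reads tallied). The labels name a stranded kit with ribosomal RNA removal.

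Genes were filtered with filterByExpr by group, scaled with TMM (factors 0.972 to 1.03) and tested in R 4.3.3 with edgeR 4.0.16, using its quasi-likelihood test in the robust form on all 16 libraries together, with no term but group, and p-values were adjusted by Benjamini and Hochberg over all genes tested. SE is the log2 change divided by the square root of F. Log2 CPM for correlations used a prior count of 2. The test was run first on simulated data. All members were named, with up to 4 genes by smallest p from each of 5 lists, besides CLOCK, BMAL1, cry3b and ALAS1, which were named after their values were seen. The members and lists were chosen with earlier results of these data known. Of 63 names on the lists 14 matched no identifier. Alternatives were DESeq2 1.42.0, its size factors in edgeR, no filter, fits of 2 groups, a replicate block, a covariate and leaving out each library. Replicates were checked for duplicate deposits: their chi-square per degree of freedom was 3.13 to 12.8, above sampling noise. No sequences, coordinates or transcript lengths were used.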

Additional observations from a re-analysis of the deposited data

Results flagged for a closer look

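Chance makes about 1 in 20 independent groups of 4 values hold a library that stands apart, but the 44 groups examined share libraries. In 3 of the 44, all of them DMSO groups, 1 library stood apart from the other 3. For dbpb it was replicate 1 with 26.3 CPM, against 24.0 to 24.3 in the others. For tefa it was replicate 4 with 133 CPM, against 145 to 147, and for nfil3 it was replicate 3 with 23.1 CPM, against 25.8 to 26.3. All 3 genes were higher in every exposed library than in any DMSO library. Without DMSO replicate 3 the rise of nfil3 at 0.1 µM was 0.34 ± 0.10 (adjusted p = 0.0827).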

How the results depend on the processing

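Against DMSO all 8 genes were called at 1 and 10 µM, and in the test over 4 groups, under every alternative run. At 0.1 µM all 8 were called under each but the fits without DMSO replicate 3 or 0.1 µM replicate 1, which lost nfil3. Between 1 and 0.1 µM the count of 0 became 1 with DESeq2 and 0 to 2 when single libraries were left out: dbpa was called without 0.1 µM replicate 1, and dbpb and tefb without 0.1 µM replicate 4. Between 10 and 1 µM the count of 3 became 0 with the outside share as covariate, 1 to 3 without single libraries (1 without 1 µM replicate 2 or 10 µM replicate 2) and 1 without 3 doubted libraries. These were 1 µM replicate 1 (fewest counts), 1 µM replicate 2 (largest share outside genes) and 0.1 µM replicate 3 (largest share not uniquely aligned), an alternative chosen after seeing the data. Over all genes the 1315 calls in that comparison became 53 with the covariate, 528 without 1 µM replicate 2, 543 without 10 µM replicate 2 and 286 without the doubted libraries. Between 10 and 0.1 µM the count of 5 became 1 with the covariate, where all calls went from 4567 (21.4%) to 275 (1.29%). The outside share at 10 µM did not overlap that at 0.1 or 1 µM, so the covariate and the concentration cannot be told apart there. The share at 0.1 µM did not overlap that in DMSO, so the same holds for that comparison. The sign turned, always without a call, in some fits without 1 library. The ranges over those fits were -0.078 to 0.0321 for tefa between 1 and 0.1 µM, -0.0312 to 0.0372 for hlfa between 10 and 1 µM, -0.1 to 0.0147 for dbpa between 10 and 0.1 µM, -0.0434 to 0.0909 for CEBPA, -0.239 to 0.00987 for CEBPD and -0.18 to 0.00314 for cebpg at 0.1 µM, and -0.175 to 0.0115 for CEBPA and -0.238 to 0.00563 for CEBPD at 1 µM. It also turned between 10 and 1 µM for tefb with the covariate (-0.0147) and for tefa without the doubted libraries (0.0212), and at 1 µM for CEBPA with the covariate (0.18) and without the doubted libraries (0.0783). The cause was not tested. Over all genes the count at 0.1 µM was 734, and 207 with the covariate to 1117 without 0.1 µM replicate 4; at 1 µM it was 2650, and 1076 to 3048; at 10 µM it was 3921, and 2580 to 5146. Replicate numbers are shared between groups in the labels, but same-numbered libraries did not deviate together (correlations from -0.178 to 0.229, over 0.1 in 1 of 24 pairs), and with the replicate number as a block 8 genes were called at each concentration against DMSO, 0 between 1 and 0.1 µM, 3 between 10 and 1 µM and 5 between 10 and 0.1 µM.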
